A study of Mus musculus with 5 samples.

Results

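The 9 genes described here encode AP-1 and stress transcription factors: Jun, Junb, Jund, Fos, Fosb, Fosl1, Fosl2, Batf and Atf3. They were chosen by name, out of 13932 coding genes that had a start in the deposited lists, which name a gene's start where a region was assigned to it. All regions assigned to one of them, or lying within 5 kb of its listed start, were taken, which gave 8 STAT3 regions and 26 H3K4me3 regions in SAHA, against 2 and 24 in diluent. The cells were bone marrow derived dendritic cells of C57BL/6 female mice aged 10 weeks. GM-CSF and IL-4, each at 10 ng/mL, had been given to the marrow over 7 days, and CD11c cells had then been selected to a stated purity of 95%. The selected cells received SAHA (vorinostat, an inhibitor of histone deacetylases, at a dose labelled 500 nm, dissolved in DMSO and given in serum-free medium) or diluent, for 12 hours. Chromatin immunoprecipitation and sequencing (ChIP-seq) was done for STAT3 in SAHA and in diluent, for H3K4me3 in SAHA and in diluent, and with rabbit IgG in diluent only. Each of these 5 groups was 1 library, so no difference between SAHA and diluent had a replicate check, no p-value was computed, and intervals cover counting error only. No gene expression was measured, and the labels do not say how many animals gave marrow.

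AP-1 is a family of dimers built from proteins with a basic DNA-binding stretch and a leucine zipper (bZIP). Jun proteins pair with each other or with Fos proteins, and Batf and Atf3 pair with Jun proteins. Fos, Jun, Junb and Atf3 are known as immediate early genes, switched on within minutes by growth factors, cytokines and stress through MAP kinases, SRF and CREB. STAT3 is switched on by cytokine receptors, and Junb and Fos are long known as genes that answer to IL-6 through it. H3K4me3 is the histone mark found over the starts of active or poised genes.

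The promoters of the 3 genes to which SAHA STAT3 regions were assigned, and of Atf3, which had the widest H3K4me3 region, are shown first, because the regions described here lie over or around them. Each is the RefSeq window of 250 bases before to 50 bases after the start in GRCm38.p6, 5′ to 3′ on the gene's own strand. The windows are chr8:84978699-84978998 (minus strand) for Junb, chr12:85473640-85473939 (plus) for Fos, chr12:85686470-85686769 (plus) for Batf and chr1:191183284-191183583 (minus) for Atf3. Capitals mark the CRE core, TGACG or CGTCA, which is part of the site that CREB and ATF proteins bind, and the TATA box, TATAAA or TTTATA.
Junb: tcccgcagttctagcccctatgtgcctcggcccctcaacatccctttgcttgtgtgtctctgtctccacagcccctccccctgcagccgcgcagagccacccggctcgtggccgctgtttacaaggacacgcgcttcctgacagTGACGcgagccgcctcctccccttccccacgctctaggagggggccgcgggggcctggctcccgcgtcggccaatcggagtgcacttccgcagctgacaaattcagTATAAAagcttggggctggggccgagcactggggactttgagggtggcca
Fos: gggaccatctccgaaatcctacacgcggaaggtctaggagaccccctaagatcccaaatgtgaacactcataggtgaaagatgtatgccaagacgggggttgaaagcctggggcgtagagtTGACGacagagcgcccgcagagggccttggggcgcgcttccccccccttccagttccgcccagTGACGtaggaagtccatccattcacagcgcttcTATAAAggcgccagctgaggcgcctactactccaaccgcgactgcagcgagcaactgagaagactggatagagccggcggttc
Batf: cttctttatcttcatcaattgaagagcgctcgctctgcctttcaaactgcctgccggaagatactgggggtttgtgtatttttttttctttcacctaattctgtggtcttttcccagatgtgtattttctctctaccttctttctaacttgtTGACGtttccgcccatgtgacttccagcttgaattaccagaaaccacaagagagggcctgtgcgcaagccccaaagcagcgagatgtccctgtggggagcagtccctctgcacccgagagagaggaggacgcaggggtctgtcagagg
Atf3: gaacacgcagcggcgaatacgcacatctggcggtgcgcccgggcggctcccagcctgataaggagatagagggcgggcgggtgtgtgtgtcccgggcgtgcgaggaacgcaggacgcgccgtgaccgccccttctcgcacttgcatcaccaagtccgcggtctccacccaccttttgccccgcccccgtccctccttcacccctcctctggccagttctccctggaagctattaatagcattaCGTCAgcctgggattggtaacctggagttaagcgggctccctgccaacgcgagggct
A window was present for 8 of the 9 genes, all but Fosl1. The CRE core was in 5 of the 8 windows and in 20.8% of 32851 promoter windows of mouse genes. It lay at -106 to -102 in Junb, at -129 to -125 and at -66 to -62 in Fos, at -60 to -56 in Fosb, at -98 to -94 in Batf and at -7 to -3 in Atf3, with the start counted as 0. The TATA box was in 2 of the 8 windows, at -33 to -28 in Fos and at 0 to 5 in Junb, and in 13.6% of all windows. Whole AP-1 sites (TGACTCA or TGAGTCA) were in 0 of 8 and in 5.20% of all windows, and the full CRE (TGACGTCA) in 0 of 8 and in 1.79%. The STAT site with 3 bases between its arms (TTCNNNGAA) was in 0 of 8 and in 8.30% of all windows, the form with 4 (TTCNNNNGAA) in 0 of 8 and in 6.95%, and the CArG box of SRF in 0 of 8 and in 1.63%. Both strands were searched, in these windows only, so a site further upstream would not have been found and 0 of 8 does not show its absence. A CRE core was also counted where it stood inside a full CRE, and a match is a run of letters, not a bound site.

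STAT3 regions fell at 3 of the 9 genes, more of them in SAHA than in diluent, as in the lists as a whole. In SAHA, the authors' deposited list against IgG held 8 regions of these genes, 4 assigned to Fos, 3 to Batf and 1 to Junb. In diluent it held 2, both within 5 kb of the Junb start. The authors assigned both to AK006748, a transcript that lies inside the longer listed Junb transcript. None of the 8 SAHA regions overlapped a diluent region, like 97.2% of the SAHA list, or lay within 1 kb of one, like 96.4%. Neither of the 2 diluent regions overlapped a SAHA region, like 93.3% of the diluent list, or lay within 1 kb of one, like 91.4%, so the lack of shared regions was that of the lists and not a result about these genes. Jun, Jund, Fosb, Fosl1, Fosl2 and Atf3 had no region in either list. The SAHA list was the longer one, with 8552 regions from 17810183 filtered tags, against 3507 regions from 25013431 tags in diluent, while the regions called without a control numbered 784 in SAHA and 844 in diluent. The part of the IgG library, which came from diluent cells only, in this difference was not tested.

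Counted within 5 kb of the listed start, 1 of 9 genes had a STAT3 region in SAHA, against 18.4% of all 13932 genes, and 1 of 9 in diluent, against 6.37% of all genes. Both times the gene was Junb. Counted by the authors' assignment at any distance, 3 of 9 genes had a STAT3 region in SAHA, against 36.9% of all genes, and 0 of 9 in diluent, against 16.5%. Neither share by assignment was above its background. Fos and Batf each had 3 or more assigned SAHA regions, 2 of the 9 genes, and 2.69% of all genes had as many. With 1 library and 9 genes this difference in shares is a description.

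At Junb, whose product is the Jun protein best known as a target of STAT3, the libraries placed STAT3 on opposite sides of the start. The SAHA region spanned chromosome 8, 87504285 to 87505743 (mm9), 1459 bp wide, upstream of the start on the minus strand, at -3126 to -1668 bp. In the authors' deposited list its score, the authors' own value of 10 times the negative log10 of p, was 59.74, above 94.6% of the SAHA list. The diluent regions lay downstream, at 1707 to 2751 bp (score 39.64, above 71.0% of the diluent list) and at 3747 to 4823 bp (score 34.81, above 48.4%). Both STAT3 lists began at a score of 30. Scores of lists of different length show no change between conditions. The nearer diluent region lay over the 3′ end of the shorter Junb transcript and over AK006748, and 3374 bp separated it from the SAHA region. A longer listed Junb transcript, 87498383 to 87502617, takes in all of AK006748. The nearer diluent region lay inside that longer transcript and the farther one over its 3′ end. Each of the 3 regions overlapped the H3K4me3 region over the Junb start in its own condition, as 27.2% of SAHA and 24.9% of diluent STAT3 regions overlapped some H3K4me3 region.

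**Figure D1:**
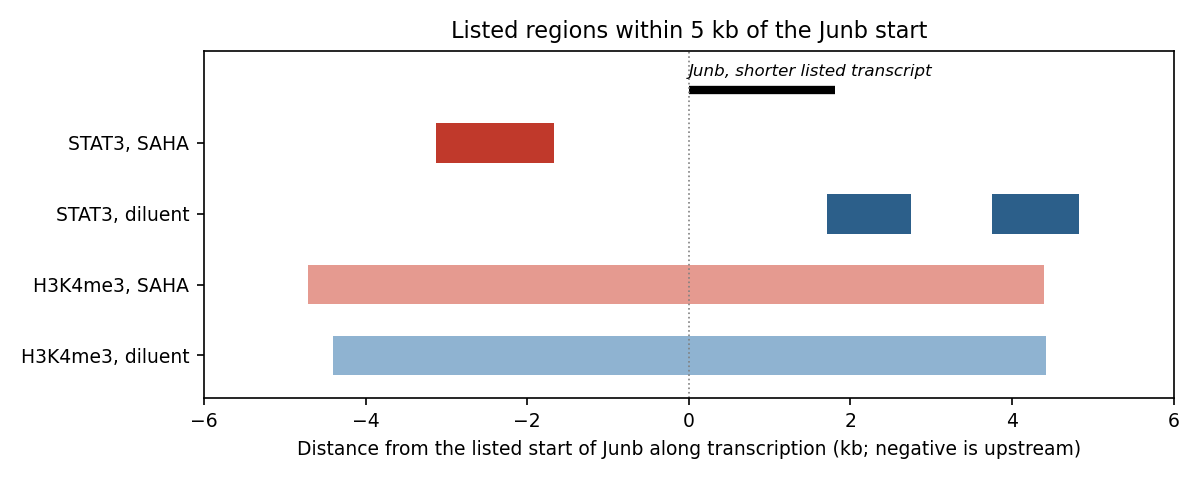
Regions of the authors' lists against IgG within 5 kb of the Junb start, 1 track per library, with distance from the start in kb along transcription. The SAHA STAT3 region lies upstream, at -3126 to -1668 bp, the diluent STAT3 regions lie downstream, from 1707 bp on, and all 3 lie over the H3K4me3 region.

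Fos, the partner of Jun proteins in the classic AP-1 dimer, had its 4 SAHA STAT3 regions far from the start on both sides. They spanned -27887 to -26982 bp (score 50.56, above 88.7% of the SAHA list), -17103 to -16203 bp (36.56, above 55.7%), 39363 to 40019 bp (38.35, above 63.6%) and 60153 to 61063 bp (47.37, above 85.1%). In mm9 they begin on chromosome 12 at 86786964, 86797748, 86854214 and 86875004, and their widths ran from 657 to 911 bp. None of the 4 overlapped an H3K4me3 region, but 3 lay next to one in SAHA. Between STAT3 and H3K4me3 regions there were 577 bp at the first place, 301 bp at the second and 819 bp at the last, while 14836 bp separated the remaining pair.

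Batf, which joins Jun proteins and IRF factors at composite DNA sites in T cells and dendritic cells, had 3 SAHA STAT3 regions in and just past its transcript. They lay at 6714 to 7290 bp (577 bp wide, score 35.58), at 14142 to 14688 bp (547 bp wide, score 32.41) and at 22553 to 23135 bp (583 bp wide, score 32.05) from the start. The listed Batf transcript runs on chromosome 12 from 87027670 to 87050037, so the first and second lay inside the gene and the last just beyond its end. Their scores were above 50.9%, 28.1% and 24.5% of the SAHA list, lower in the list than the Junb region and near or below its middle. All 3 were close to the lowest score of that list, 30. The distances to the nearest SAHA H3K4me3 region were 3643, 1781 and 2712 bp.

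Of the 7 SAHA STAT3 regions of these genes outside H3K4me3 regions, 3 lay within 1 kb of one, all at Fos, against 5.96% of all 6224 such SAHA regions. The regions at 1 gene share a neighbourhood and are not independent of each other. The nearest region of the IgG library was 1175305 bp or more from each of these STAT3 regions. That library had 606 regions in all, called without a control, so such a distance does not show a lack of background. No tag counts exist for any of the 10 STAT3 regions, since none overlapped a region of the single-library tables, as was also so for most of the lists: 277 of 8552 SAHA regions and 283 of 3507 diluent regions did. Presence in a list was therefore the sole STAT3 measure, and a region missing from a list is not shown to lack STAT3. Fos and Batf are neighbours, 213 kb apart on chromosome 12, and the gene for a further bZIP protein, Jdp2, lies between them.

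**Figure D2:**
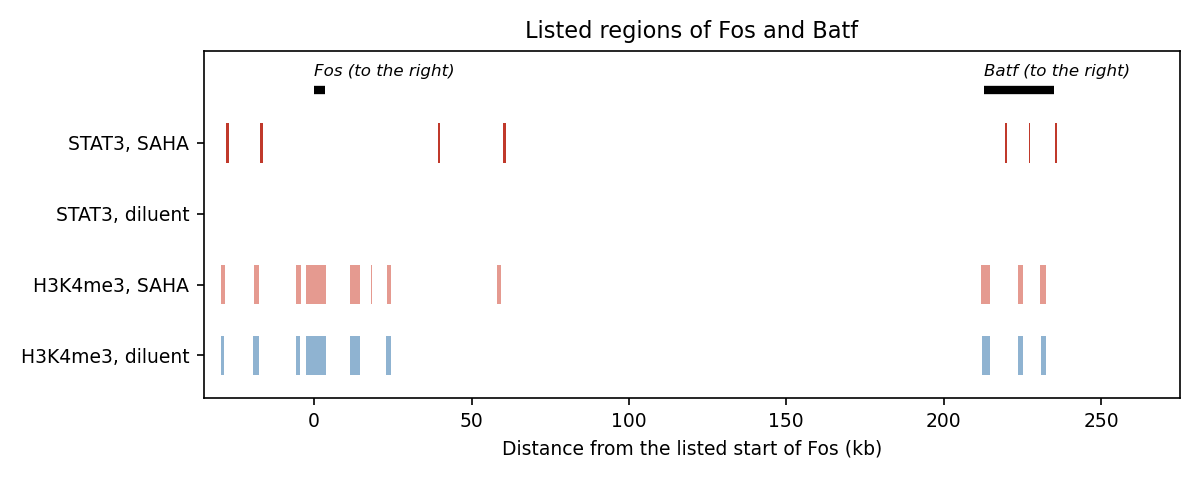
Regions of the authors' lists against IgG taken for Fos and Batf, 1 track per library, along chromosome 12 in kb from the Fos start, with the listed transcripts as black bars. Regions assigned to genes between the pair are not drawn. The 7 STAT3 regions are all in the SAHA track, and the H3K4me3 regions from 18032 and from 58254 bp have no counterpart in diluent.

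H3K4me3 lay over the starts of all 9 genes in both libraries, and at most of them it formed a wide region. Within 5 kb of the start, 9 of 9 had an H3K4me3 region in SAHA and 9 of 9 in diluent, against 85.6% and 84.5% of all genes. The region over the start was wider than 5 kb at 6 of 9 genes in SAHA, against 11.5% of the 11199 genes with such a region, and at 5 of 9 in diluent, against 7.40% of 11134. The median width over the 9 genes was 7007 bp in SAHA and 6100 bp in diluent, and over all genes it was 2622 bp in SAHA and 2511 bp in diluent.

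The Jun genes were all on the wide side. Jun had a region of 7245 bp in SAHA and 6100 bp in diluent, Junb of 9104 bp in SAHA and 8822 bp in diluent, and Jund of 7007 bp in SAHA and 3667 bp in diluent. These regions were wider than 95.8% to 99.4% of the genes in their library, except for the diluent region of Jund, which was wider than 80.2%. At Jund, which encodes the Jun protein that many resting cells make, the diluent list had a second region of 2329 bp, split by 444 bp from the one over the start. One SAHA region covered both. With all listed regions within 5 kb added up, Jund had 7726 bp in SAHA and 5996 bp in diluent.

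The Fos genes ran from wide to narrow. Fosl2, which encodes Fra-2, had 8257 bp in SAHA and 7435 bp in diluent, wider than 97.5% and 98.7% of genes. Fos had 6265 bp in SAHA and 6218 bp in diluent. Fosb, which like Fos is an immediate early gene in neurons and other cells, had 3499 bp in SAHA and 3232 bp in diluent, wider than 72.3% and 72.6% of genes. Fosl1, which encodes Fra-1, had the narrowest region of the 9, with 2052 bp in SAHA and 2194 bp in diluent, below the median of all genes.

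Batf lay at the middle of all genes, with 2591 bp in SAHA and 2531 bp in diluent. Atf3, a factor induced by many kinds of cell stress that restrains inflammatory genes in macrophages, had the widest region of the 9 in both libraries, 12181 bp in SAHA and 9773 bp in diluent, wider than 99.5% and 99.7% of genes. In mm9 it spanned chromosome 1, 192998572 to 193010752 in SAHA and 193000986 to 193010758 in diluent, so the upstream ends differed by few bases and the SAHA region reached further into the gene. It had no tag count: the single-library tables lacked it, as they lacked all 52 SAHA and all 35 diluent list regions of its width or more. The widest region of those tables was 9395 bp in SAHA and 9457 bp in diluent, against 24538 bp and 14287 bp in the lists. Of the 9 genes, 8 had the wider start region in SAHA, against 71.6% of the 10944 genes with one in both lists, and 1, Fosl1, in diluent, against 28.3%. With all list regions within 5 kb added up, Fosl1 was wider in SAHA (2762 bp, against 2194 bp in diluent) and Fos was narrower (7275 bp in SAHA, against 7458 bp in diluent). The median log2 ratio of called width was 0.08 over the 8 genes with tags and 0.08 over all genes.

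**Figure D3:**
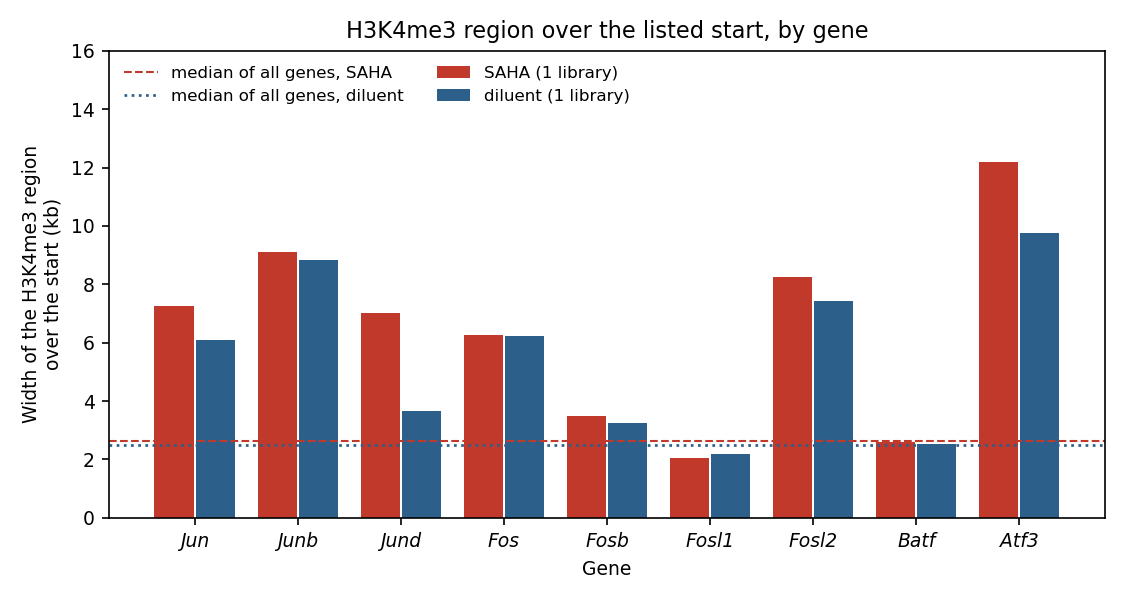
Width in kb of the H3K4me3 region over the listed start of each of the 9 genes, SAHA beside diluent, 1 library each, from the authors' lists against IgG. Dashed and dotted lines give the medians of all genes, 2622 bp in SAHA and 2511 bp in diluent. Atf3, Junb and Fosl2 stand highest, and Fosl1 and Batf lie near the lines.

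H3K4me3 tags at the starts differed little between SAHA and diluent. Past 1.5-fold, the size taken as a change, 0 of 8 genes were higher in SAHA, against 6.66% of the 11468 genes with tags in both libraries, and 0 of 8 were lower, against 2.21%. Scaled to each library's filtered tags, 21428355 in SAHA and 22420200 in diluent, the median log2 ratio was 0.05 over the 8 genes and -0.04 over all genes. Tags per kb of called width had a median log2 ratio of -0.15 over the 8 genes and -0.12 over all genes, so on that scale most genes were lower in SAHA and values are to be read against that shift. The counting interval lay above 0 for 3 of 8 genes, against 22.6% of all genes, and below 0 for 2 of 8, against 31.7%. Among the 3 was Jund, whose tags were counted over 7007 bp in SAHA and 3667 bp in diluent.

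Jun, the founding member of the family, had 3580 tags in SAHA and 3678 in diluent, a log2 ratio of 0.03 (95% interval -0.04 to 0.09) and of -0.22 per kb. Junb had 3884 tags in SAHA and 4541 in diluent, a log2 ratio of -0.16 (-0.22 to -0.10) and of -0.21 per kb. Jund had 2042 tags in SAHA and 1880 in diluent, a log2 ratio of 0.18 (0.09 to 0.28). By tags the interval of Jun held 0, Junb lay below 0 and Jund above it. Per kb the sign turned at Jun and at Jund, so that all 3 lay below 0, as did the median of all genes, -0.12. The value of Jund per kb was -0.75, past 1.5-fold, with tags counted over 7007 bp in SAHA and 3667 bp in diluent. The second diluent region of Jund, of 2329 bp, had no tag count, while the SAHA region covered that stretch. Both ratios of Jund therefore compare unlike stretches.

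Fosl2 had 3285 tags in SAHA and 2894 in diluent, a log2 ratio of 0.25 (0.18 to 0.32) and of 0.10 per kb. Fosl1 had 452 tags in SAHA and 397 in diluent, a log2 ratio of 0.25 (0.05 to 0.45) and of 0.35 per kb. These Fra genes had the highest ratios of the 8, above 83.7% and 84.0% of all genes. Fos had 1899 tags in SAHA and 2117 in diluent, a log2 ratio of -0.09 with an interval below 0, and of -0.10 per kb. Fosb had 942 tags in SAHA and 1065 in diluent, a log2 ratio of -0.11 (-0.24 to 0.02) and of -0.23 per kb. Fos and Fosb thus lay slightly below 0 and Fosl1 and Fosl2 above it on both scales, all short of 1.5-fold. The interval of Fosb held 0. By tags Fos and Fosb were above 39.2% and 35% of all genes, and per kb Fos was near the median of all genes, -0.12. Batf had 769 tags in SAHA and 763 in diluent, a log2 ratio of 0.08 (-0.07 to 0.22) and of 0.04 per kb.

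**Figure D4:**
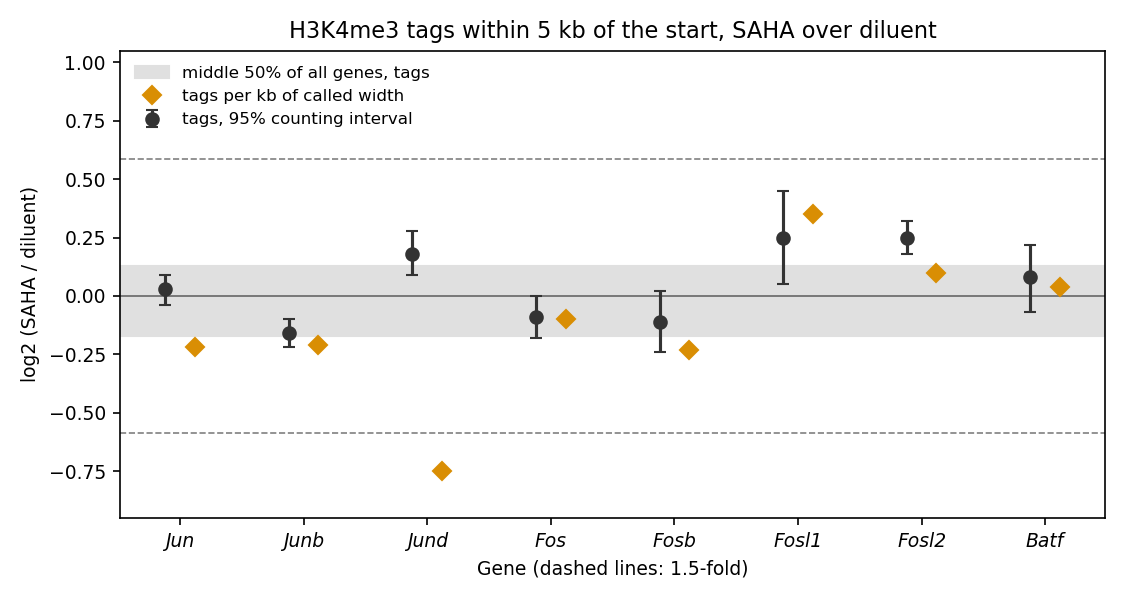
Log2 ratio of H3K4me3 tags, SAHA over diluent, within 5 kb of the start of 8 genes (circles, with 95% counting intervals) and per kb of called width (diamonds). The grey band holds the middle 50% of all 11468 genes by tags, and dashed lines mark 1.5-fold. All circles lie between the dashed lines, and the diamond of Jund, at -0.75, lies below them.

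Per kb, the density of H3K4me3 tags at the starts was highest at Jun in both libraries, with 494 tags per kb in SAHA and 603 in diluent, and lowest at Fosl1, with 220 in SAHA and 181 in diluent. These densities are not scaled to filtered tags, so they order the genes within a library and their sizes are not to be compared between libraries. In SAHA, Junb (427) and Fosl2 (398) came next after Jun, then Fos (303), Batf (297), Jund (291) and Fosb (269). The counting intervals of Fos, Batf and Jund overlapped, as did those of Batf, Jund and Fosb. In diluent, Junb (515) and Jund (513) came after Jun and could not be told apart by counting error, followed by Fosl2 (389), Fos (340), Fosb (330) and Batf (301). There the intervals of Fos and Fosb overlapped, and those of Fosb and Batf. Jund stood at place 6 in SAHA and place 3 in diluent, Batf at place 5 in SAHA and place 7 in diluent, and the other 6 genes differed by at most 1 place. The places of Jund rest on unlike called stretches, 7007 bp in SAHA and 3667 bp in diluent.

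Away from the starts, paired H3K4me3 regions of single genes did not all move the same way. Inside Batf, both distal regions had fewer tags in SAHA while the start did not: the region at 10934 to 12360 bp had 215 tags in SAHA and 303 in diluent, a log2 ratio of -0.43 (-0.69 to -0.17). The region at 17759 to 19840 bp had 292 tags in SAHA and 398 in diluent, a log2 ratio of -0.38 (-0.60 to -0.16). Of all 19170 paired regions, 7.32% and 8.95% had a lower ratio than these, and both stayed below 0 per kb, at -0.39 and -0.56. Each was short of 1.5-fold. SAHA STAT3 regions of Batf lay 1781 and 2712 bp from these same H3K4me3 regions, with no STAT3 region there in diluent. Their scores, 32.41 and 32.05, were close to the lowest of the list, 30. A link between the STAT3 regions and these tags was not tested.

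Fosb showed the opposite arrangement upstream. Its region at -17474 to -16390 bp had 66 tags in SAHA and 42 in diluent, a log2 ratio of 0.72 (0.14 to 1.31), past 1.5-fold and above 89.7% of all pairs, on few tags, and of 0.52 per kb. The next one, at -10887 to -9421 bp, had 147 tags in SAHA and 125 in diluent, a log2 ratio of 0.30 (-0.05 to 0.65). Downstream, at 8163 to 9861 bp, it had 199 tags in SAHA and 222 in diluent, a log2 ratio of -0.09 (-0.38 to 0.19).

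Fos had 4 paired regions away from its start. The one at -19198 to -17405 bp, 301 bp from a SAHA STAT3 region, had 357 tags in SAHA and 445 in diluent, a log2 ratio of -0.25 (-0.46 to -0.05). The one at -29635 to -28465 bp, 577 bp from another, had 88 tags in SAHA and 79 in diluent, a log2 ratio of 0.22 with an interval that held 0 (-0.23 to 0.68). Before scaling to filtered tags it had 75.1 tags per kb in SAHA and 78.8 in diluent, and the scaled log2 ratio per kb was -0.0. The downstream ones, at 11431 to 14417 bp and 22994 to 24526 bp, had log2 ratios of -0.11 (-0.25 to 0.02) and 0.13 (-0.22 to 0.48). Upstream of Atf3, the region at -11224 to -9719 bp had 91 tags in SAHA and 77 in diluent, a log2 ratio of 0.31 (-0.15 to 0.76).

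**Figure D5:**
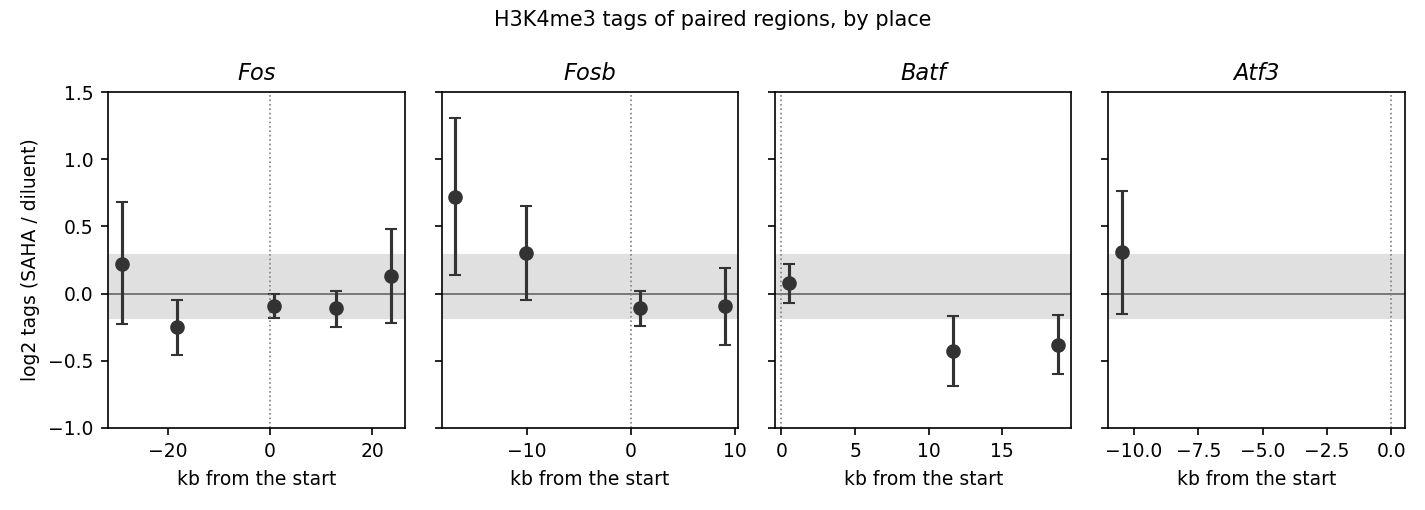
Log2 ratio of H3K4me3 tags, SAHA over diluent, for paired regions of Fos, Fosb, Batf and Atf3 by the distance of their midpoint from the start in kb, with 95% counting intervals. The grey band holds the middle 50% of all 19170 pairs. The distal Batf regions and the Fos region at -19198 to -17405 bp lie below the band. The upstream Fosb regions and the Atf3 region lie above it, with the far upstream Fosb region highest.

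Of the H3K4me3 regions of these genes, 4 of 26 were listed in SAHA only, against 17.8% of the SAHA list, and 2 of 24 in diluent only, against 5.37% of the diluent list. Both shares were near those of the lists, and the 6 regions scored above 0.781% to 25.6% of their list. SAHA alone had one at Jund (719 bp, score 170.53), one near Fosl1 (710 bp, score 54.23) and 2 at Fos (364 bp, score 51.56, and 1080 bp, score 84.63). The last of these, at 58254 to 59333 bp, was the one beside the SAHA STAT3 region 819 bp away. Diluent alone had one at Fosb (798 bp, score 75.07) and one at Atf3 (1009 bp, score 60.36). The H3K4me3 lists began at a score of 50, and the absence of these regions from the other list is no measured loss.

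Among the genes of other bZIP proteins, only some of which pair with Jun, Fos or Batf, 8 of 24 carried STAT3 within 5 kb of the start in SAHA. In diluent 5 of 24 did, with 2 in both, against the 18.4% and 6.37% of all genes. Both shares were above those of all genes, and no test was made of this. Atf7 and Nfe2l1 had one in both libraries. Maff, a small Maf protein (score 104.6), Atf4, the effector of the integrated stress response (61.73), and Jdp2, a repressor that dimerizes with Jun (40.33), had one in SAHA only, and Crem, Mafg and Atf1 in diluent only. Jdp2, between Fos and Batf, had the highest tag ratio of this list, with 1693 H3K4me3 tags in SAHA and 931 in diluent, a log2 ratio of 0.93 (0.81 to 1.04), on a called width of 6402 bp in SAHA and 3670 bp in diluent, so that per kb the ratio was 0.13. It was the 1 gene of 21 with tags past 1.5-fold, and 0 were lower. Batf3, which is needed for cross-presenting dendritic cells, had a log2 ratio of 0.32, Maf of -0.29 and Atf7 of -0.26. The list median was 0.04.

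Other immediate early genes had STAT3 regions within 5 kb at 7 of 18 genes in SAHA, against 18.4% of all genes, and 2 of 18 in diluent, against 6.37%. Ier3 and Egr3 had them in both, and Egr1, the zinc finger factor induced together with Fos (score 59.27), Nr4a3 and Klf4 were among the 5 in SAHA only. Their H3K4me3 tags had a median log2 ratio of -0.01, with 0 of 15 past 1.5-fold either way, from Nr4a1 at 0.44 and Klf2 at 0.33 to Ier5 at -0.13 and Srf at -0.16. Start regions wider than 5 kb were found at 10 of 18 of these genes in SAHA and 8 of 18 in diluent, and at 11 of 24 bZIP genes in SAHA and 7 of 24 in diluent, against 11.5% and 7.40% of all genes. Wide start regions were thus shared by the AP-1 genes and these related lists. Of the MAP kinases that act upstream of AP-1, 2 of 13 carried STAT3 regions in SAHA and 3 of 13 in diluent, again beside 18.4% and 6.37%. Map3k8, the kinase known as Tpl2, had one in both, Mapkapk2 in SAHA only, and Map3k1 and Map2k6 in diluent only. Their median log2 tag ratio was 0.08, from Map2k6 at 0.56 and Mapk3 at 0.34 to Map2k7 at -0.25, with 0 of 13 past 1.5-fold.

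The genes most like each AP-1 gene in H3K4me3 were found by the Euclidean distance over 4 log2 values, the tags and the width in each library. Jun was nearest to Tln1 (distance 0.068), Junb to Stk4 (0.14), Jund to Phf11b (0.12), Fos to Cipc (0.069), Fosb to Prkx (0.048), Fosl1 to Scd1 (0.13), Fosl2 to Il6 (0.11) and Batf to Asap2 (0.054). Il6, for example, had 3126 tags in SAHA and 2947 in diluent. With 2 libraries of 1 mark behind them, these distances describe size and shape at the start and nothing else.

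Of the libraries as a whole, total reads ranged from 19504014 to 27920130. Aligned tags made up 77.9% of the reads in the IgG library and 97.4% or more in the other 4. H3K4me3 regions lay within 5 kb of the start at 10 of 10 dendritic cell markers and 6 of 6 macrophage and monocyte markers in both libraries. Among markers of other cells that had a listed start, they were found at 2 of 3 T cell, 2 of 2 erythroid and 1 of 2 granulocyte and mast cell markers in both libraries, and at 0 of 3 B cell markers in SAHA against 1 of 3 in diluent. Cd4, Pax5 and Cpa3 had a listed start and no such region in either library. Cd3e, Cd8a, Cd79a, Ms4a1, Gata1, Hbb-b1, Mpo, Ltf and Mcpt4 had no listed start, so their distance to regions was not measured. A start was listed only where a region was assigned, so no region of the 4 lists was assigned to these names. With them included, the markers numbered 5 for T cells, 5 for B cells, 4 for erythroid cells and 5 for granulocytes and mast cells. The shares above, of markers with a listed start, therefore leave out markers without any assigned region. The part of other cells in the values above was not tested.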

How the data were processed

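ChIP-seq of STAT3, H3K4me3 and IgG gave 5 libraries, 1 per group. The submitters' processing notes name BWA, with no version, and mm9. Regions in the deposited single-library tables were called by MACS 1.4.0rc2 with no control library (p-value limit 1e-05, up to 2 duplicate tags per position), per the file headers. They hold tag counts, a fold enrichment ratio and a score for each region, per the file headers. The lists against IgG, also deposited, lack a header and hold a score and 1 gene for each region. The settings behind them were not stated in the sources at hand. Depth came from the deposited FastQC 0.9 tables and the file headers.

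Starts came from the gene columns of the lists, and symbols were matched to RefSeq names (GRCm38.p6, names and promoter windows only): 14133 of 17024 were coding. A region was near a gene when its nearest edge lay within 5 kb of a listed start, and regions overlapped from 1 bp on. Tags of regions within 5 kb were summed per gene and scaled to filtered tags. Ratios have exact conditional binomial 95% intervals and tag counts exact Poisson ones, covering counting error only. In simulated counts the steps were checked. Python 3.11.15, numpy 2.4.6, scipy 1.17.1, pandas 2.3.3 and matplotlib 3.10.9 were used. Coordinates are 1-based. All 9 genes are named. Of each of the 3 other lists the text names up to 3 genes with a STAT3 region in both, in SAHA only and in diluent only, by score, and the 2 highest and 2 lowest tag ratios, of which 1 gene is not reported here. Members and lists were chosen with earlier results of these data known. The CRE core, the TATA box and the STAT site with 4 bases between were searched after the data were seen. Alternatives covered the distance, the score limit, assignment, scaling, tags per kb, the fold limit and the overlap. Region sequences in mm9 were not used here.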

Additional observations from a re-analysis of the deposited data

How the results depend on the processing

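Counts of genes with a nearby STAT3 region were small and moved with the rule. In SAHA the count of 1 became 0 within 1 kb, 3 within 20 kb (Junb, Fos and Batf), 3 by the authors' assignment and 0 in the single-library tables. In diluent the count of 1 became 0 within 1 kb, by assignment and in the single-library tables. With equal numbers of top-scoring regions in both lists, a choice made after seeing the data, 4 of the 8 assigned SAHA STAT3 regions were left, 3 at Fos and 1 at Junb. Per kb of called width, 1 gene, Jund, had H3K4me3 tags lower in SAHA past 1.5-fold, against 0 by tags. The other 42 values for the group of genes kept within 1.5 times of the value reported. Most of them were counts that stayed at 0 or at all 9 genes and had little room to move. Among the log2 tag ratios of single genes, 3 of 8 left their counting interval per kb. These were Jun (-0.22, against 0.03), Jund (-0.75, against 0.18) and Fosl2 (0.10, against 0.25). By tags, scaling to total reads and setting the median of all genes to 0 each gave log2 ratios from -0.12 to 0.29 over the 8 genes. Regions within 20 kb gave -0.13 for Batf. With the widths of all list regions within 5 kb added up, in place of the 1 region over the start, the log2 width ratio was 0.37 for Jund, against 0.93, and it changed sign at Fosl1, to 0.33 against -0.10, and at Fos, to -0.04 against 0.01. No paired analysis was possible because each group has 1 library. STAT3 depth limits what can be said: without tag counts, absence from a list cannot be told from a region just under its limit.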
